A study of Mus musculus with 4 samples.

Results

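The genes described here encode the subunits of the receptors for glutamate, GABA and glycine and of the nicotinic acetylcholine receptors, in Beta-TC-6, a mouse pancreatic beta cell line. They were chosen by gene symbol: the AMPA (Gria), kainate (Grik), delta (Grid), NMDA (Grin) and metabotropic (Grm) glutamate receptor genes, the GABA-A receptor genes (Gabr), the glycine receptor genes (Glra and Glrb) and the alpha and beta nicotinic genes (Chrna and Chrnb). The symbol rule used no expression value and took 57 of 22180 genes with a probe set carrying their symbol alone, through 62 probe sets. The members were chosen, however, with earlier results of these data known. The 2 groups were cells transfected with a negative control siRNA (siNTC, 2 samples) and cells transfected with a mixture of RNA duplexes against NF45 (siNF45, 2 samples). All 4 samples came from the same line, grown in medium with 25 mM glucose and serum and transfected with the same lipid reagent. Each sample's total RNA was hybridised to its own GeneChip Mouse Gene 2.1 ST array. The line is a single tumour-derived one. Nothing in the labels ties replicates to separate transfections, so the p-values rest on a spread between samples that may be only technical. NF45, encoded by Ilf2, is a partner of double-stranded RNA-binding proteins, and the study asked which transcripts change when it is depleted.

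AMPA, kainate, delta and NMDA receptors are tetramers built around a glutamate-gated cation channel, while metabotropic glutamate receptors signal through G proteins. GABA-A, glycine and nicotinic receptors belong to the family of pentameric channels, the first pair conducting chloride and the nicotinic ones conducting cations. These are best known from synapses, but beta cells secrete GABA and glutamate, receive acetylcholine from nerves, and carry several of these receptors, which change membrane potential, calcium entry and insulin release. In AMPA receptors the subunit encoded by Gria2 keeps calcium out, because its transcript is edited at a codon of the pore. An expression array reads the amount of a transcript and not its editing.

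Values are the authors' log2 expression values, and each gene is represented by its brightest probe set. A gene was tested where its mean over the 4 arrays reached the median of all probe sets, 1.65. It was called clearly above background where that mean also reached 1.82, the 95th percentile of 1445 olfactory, vomeronasal and keratin-associated genes, which a beta cell line is not known to express. Of the 57 receptor genes, 19 were tested and 15 of them were clearly above background. Those 15 were Gria2, Gria3, Gria4, Grik2, Grik5, Grid1, Gabra3, Gabra4, Gabrq, Glra3, Glrb, Chrna3, Chrna7, Chrnb2 and Chrnb4. Of these, Grik2, at a mean of 1.87, reached the background level only through its siNTC arrays. Its group means were 2.065 in siNTC and 1.67 in siNF45. Gabrr1 and Glra1, at means of 1.815 and 1.8125, lay just under the background level of 1.816. Gabra2 and Gabre were the other tested genes, at 1.77 and 1.66. The nearest gene below the filter was Gabrb2, at 1.57. Values of different probe sets are not on a common scale, so levels are compared between arrays and not between genes.

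The labels and the identity of the line were checked first. Ilf2 read 5.79 and 5.98 in siNTC and 3.67 and 3.77 in siNF45, the direction its label calls for. Of the 8 beta cell markers, 6 had a probe set of their own and all 6 were clearly above background, with a summed level (log2) of 10.63 to 10.72 in siNTC and 10.66 in both siNF45 arrays. Among neuronal and glial markers, 1 of 7 was clearly above background, Map2, while the vesicular glutamate transporters Slc17a6 and Slc17a7 and the glial genes Gfap, Sox10 and Mbp were not. None of 4 mesenchymal, endothelial and immune markers was. Of 4 markers of other islet cells 3 were clearly above background, and their summed level was 9.31 to 9.66 in siNTC and 8.85 to 8.96 in siNF45. Within that list somatostatin (Sst) differed by -0.89, glucagon (Gcg) by -0.02 and pancreatic polypeptide (Ppy) by 0.52. The part of these other islet genes in the receptor values was not tested.

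No receptor gene passed the test across all genes. Groups were compared with limma, with Benjamini-Hochberg adjustment over 11742 genes and a threshold of 0.05, at which 10 genes, or 0.0852% of those tested, were called. At an unadjusted p under 0.05, 5 of the 19 tested receptor genes were lower in siNF45 (Grid1, Gria2, Gabra4, Grik2 and Gabrq) and 2 were higher (Chrna3 and Gabrr1), 36.8% in all. Gabrr1 reached the filter only through its siNF45 arrays, and without it the count was 6 of 18, or 33.3%. Among all tested genes 17.2% reached that level, 13.2% lower and 4.02% higher, and whether the shares differ was not tested. The 7 became 4 without siNTC replicate 1 and 4 without siNTC replicate 2, and the 10 calls over all genes became 0 when any 1 array was left out. In a culture measured whole, fewer cells with a transcript and less of it per cell cannot be told apart. The median difference over the 19 was -0.14 and over all tested genes -0.07. The 57 receptor genes taken whole had a median of -0.005, the same as that of all genes without a filter. Each difference is given on the log2 scale as siNF45 minus siNTC, with limma's moderated standard error (SE). For a single gene an exact two-sided permutation test cannot go below 0.333 with 2 arrays against 2.

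**Figure D1:**
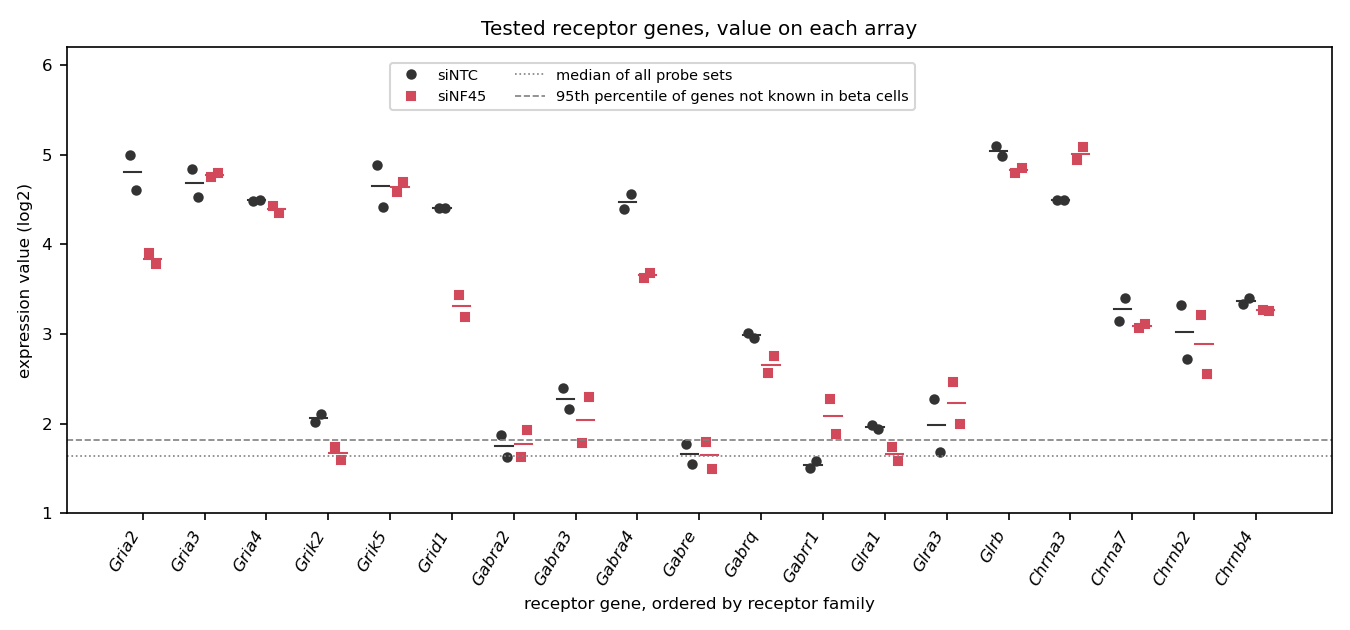
Expression value (log2) on each array for the 19 tested receptor genes, ordered by family; circles are siNTC, squares siNF45, short lines group means, and the grey lines mark the filter (1.65) and the background level (1.82). Grid1, Gria2 and Gabra4 show siNF45 squares well below the siNTC circles, Chrna3 shows them above, and Chrnb2 is split by replicate in both groups.

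To show what lies upstream of 3 of the 4 receptor genes described in most detail below (Gria2, Gabra4 and Chrna3, not Grid1) and of the neighbours of Gria2 and Chrna3, the 250 bases before the RefSeq start are given, 5′ to 3′ on the strand of the gene, from RefSeq's mouse assembly GRCm38.p6. Capitals mark matches to 3 motifs, each searched on both strands: the GC box GGGCGG, the cAMP response element TGACGTCA, and the core of RE1 (AGCACC, any 2 bases, then GGACAGC), the element bound by the repressor REST. The RE1 core was added after the sequences had been read. The Gria2 window is at chr3:80802836-80803085, minus strand, and that of its neighbour Glrb at chr3:80913661-80913910, minus strand. That of Gabra4 is at chr5:71658309-71658558, minus strand. Those of the neighbours Chrna3 and Chrnb4 are at chr9:55026563-55026812 and chr9:55048545-55048794, both minus strand.
Gria2: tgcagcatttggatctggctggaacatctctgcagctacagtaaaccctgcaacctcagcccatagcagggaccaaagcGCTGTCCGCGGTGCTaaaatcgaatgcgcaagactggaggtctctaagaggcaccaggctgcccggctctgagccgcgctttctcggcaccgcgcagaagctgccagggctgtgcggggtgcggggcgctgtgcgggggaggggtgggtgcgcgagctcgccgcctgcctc
Glrb: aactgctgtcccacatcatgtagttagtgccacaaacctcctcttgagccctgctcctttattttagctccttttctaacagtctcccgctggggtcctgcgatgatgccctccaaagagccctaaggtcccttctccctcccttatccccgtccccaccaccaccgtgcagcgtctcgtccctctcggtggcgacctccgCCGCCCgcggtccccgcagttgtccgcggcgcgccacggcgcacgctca
Gabra4: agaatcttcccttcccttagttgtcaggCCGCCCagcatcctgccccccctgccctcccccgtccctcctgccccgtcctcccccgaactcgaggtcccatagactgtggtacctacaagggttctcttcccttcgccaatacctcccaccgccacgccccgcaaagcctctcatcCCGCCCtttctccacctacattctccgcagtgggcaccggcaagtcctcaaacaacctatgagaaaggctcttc
Chrna3: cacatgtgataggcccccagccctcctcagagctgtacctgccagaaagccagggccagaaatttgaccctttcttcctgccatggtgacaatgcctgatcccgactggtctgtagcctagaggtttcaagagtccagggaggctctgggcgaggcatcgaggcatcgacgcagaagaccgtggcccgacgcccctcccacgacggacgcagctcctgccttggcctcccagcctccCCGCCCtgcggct
Chrnb4: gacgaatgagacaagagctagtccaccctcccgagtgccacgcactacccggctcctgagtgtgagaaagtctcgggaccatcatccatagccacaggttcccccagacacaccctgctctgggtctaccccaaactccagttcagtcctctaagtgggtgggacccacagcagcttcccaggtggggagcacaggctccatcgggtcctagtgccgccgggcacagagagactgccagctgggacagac
The Gria2 window held the RE1 core on its reverse strand, 171 to 157 bases before the start. The same core was found in 9 of 32851 windows of that length in the table, or 0.0274%. It was in no window of the other receptor genes with an entry. Only exact matches were counted, and since the core was added after reading, its rarity tests nothing about Gria2. Gabra4 had 2 GC boxes and Glrb and Chrna3 had 1 each, all on the reverse strand. A GC box was present in 32.7% of all windows. Counted by gene, it was in 10 of the 16 tested receptor genes with an entry and in 23 of all 43 with an entry. Some genes have several windows, so the counts and the share are unlike measures, and whether they differ was not tested. The cAMP response element was in 1.55% of all windows and in none of a receptor gene, of which 43 had an entry. Rest itself, looked at after the motif was found, was at 1.77 and 1.52 in siNTC and 1.67 and 1.68 in siNF45, under the background level in both groups. A match in these letters is a description of the window, and binding was not measured.

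Among the AMPA receptor genes, which encode the channels of fast excitatory signalling, Gria2 stood lower in siNF45 and Gria3 and Gria4 did not differ detectably. Gria2 read 5.0 and 4.61 in siNTC and 3.90 and 3.78 in siNF45. Both siNF45 arrays lay below both siNTC arrays, and the gap between groups was larger than that between replicates. The means were 4.81 ± 0.28 and 3.84 ± 0.08 (SD, n = 2 each), so that Gria2 was 1.95-fold lower, by -0.97 (SE 0.17), at a limma adjusted p of 0.097. Gria3 read 4.84 and 4.53 in siNTC and 4.75 and 4.80 in siNF45. The groups overlapped, and the difference was 0.09 (95% interval -0.28 to 0.46). Gria4 read 4.48 and 4.50 in siNTC and 4.43 and 4.35 in siNF45. The groups did not overlap, but the difference of -0.10 had an interval from -0.39 to 0.19. Gria1 was below the filter, at a mean of 1.18.

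The contrast between Gria2 and the other AMPA genes was also taken within each array, where any scaling of the array cancels. The value of Gria2 minus that of Gria3 was 0.16 and 0.08 in siNTC and -0.85 and -1.02 in siNF45. It moved by -1.06 between the groups. Gria2 minus Gria4 was 0.52 and 0.11 in siNTC and -0.53 and -0.57 in siNF45, a shift of -0.87. Neither within-array difference overlapped between the groups, and both exact permutation p were 0.333, the smallest this design allows. These were 2 of 8 such pairs computed, chosen with the values known. The pair of Gabra4 with Gabra2 is not used, since Gabra2 was under the background level in both groups, and 6 of the other 7 gave groups that did not overlap.

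Grid1 encodes a delta receptor subunit, a member of the glutamate receptor family that binds glycine and D-serine and takes part in synapse organisation through cerebellin proteins. It had the lowest difference of the 19. It read 4.41 and 4.40 in siNTC and 3.44 and 3.19 in siNF45. The siNTC arrays were nearly equal and both siNF45 arrays lay well below them. The means were 4.41 ± 0.01 and 3.32 ± 0.18 (SD, n = 2 each), 2.13-fold apart, or -1.09 (SE 0.14), at a limma adjusted p of 0.072. The alternatives moved this p between 0.021 and 0.471, and 4 of 13 put it under 0.05.

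Kainate receptor genes encode channels that act on both sides of the synapse, and 2 of 5 were tested. Grik5, a subunit that needs a partner to form a channel, read 4.88 and 4.42 in siNTC and 4.58 and 4.70 in siNF45. Its groups overlapped, with a difference of -0.01 (95% interval -0.46 to 0.44). Grik2, a core subunit, read 2.02 and 2.11 in siNTC and 1.74 and 1.60 in siNF45. Both siNF45 arrays were lower and under the background level, so the size of the difference is uncertain. The fit gave -0.40 (SE 0.13, 95% interval -0.71 to -0.08, limma adjusted p = 0.216). The siNTC mean was 1.19-fold above the background level, a ratio that carries no sampling error. Grik1, Grik3 and Grik4 were below the filter, with means between 0.91 and 1.55.

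All 6 NMDA receptor genes with values, Grin2a to Grin2d, Grin3a and Grin3b, were below the filter, with means of 1.06 to 1.55. All 7 metabotropic receptor genes with values, Grm2 to Grm8, were below it too, at 1.07 to 1.55. NMDA receptors are the coincidence detectors of synaptic plasticity, and several metabotropic receptors have been described in islets. At these levels a difference could not be told from background, and their differences ran from -0.33 to 0.22 and from -0.03 to 0.22. The second probe sets of Grin2b, Grin2c, Grin2d, Grm6 and Grm7 were dimmer than those used.

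GABA-A receptors are chloride channels of mixed subunits, and 6 of 16 genes were tested. Gabra4, an alpha subunit usually found in extrasynaptic receptors, read 4.39 and 4.56 in siNTC and 3.63 and 3.68 in siNF45. Both siNF45 arrays lay below both siNTC arrays by several times the spread between replicates. The means were 4.48 ± 0.12 and 3.66 ± 0.04 (SD, n = 2 each), which is 1.77-fold, or -0.82 (SE 0.13), at a limma adjusted p of 0.085. Gabrq, which encodes the theta subunit, read 3.01 and 2.96 in siNTC and 2.57 and 2.75 in siNF45. It was lower on both siNF45 arrays, with a difference of -0.33 (SE 0.13, limma adjusted p = 0.279). Gabra3, another alpha subunit and the gene next to Gabrq on the X chromosome, read 2.40 and 2.16 in siNTC and 1.79 and 2.30 in siNF45. Its groups overlapped, at a difference of -0.24 (95% interval -0.74 to 0.27).

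The remaining tested GABA-A genes lay near background. Gabrr1, which encodes a rho subunit of the GABA-C type, read 1.51 and 1.58 in siNTC and 2.28 and 1.89 in siNF45. Since it was tested only because of the siNF45 arrays, a difference was built in. The siNF45 mean was 1.20-fold above the background level, a ratio that carries no sampling error. The fitted difference was 0.54 (SE 0.16, 95% interval 0.13 to 0.95, limma adjusted p = 0.206). Gabra2 read 1.88 and 1.63 in siNTC and 1.63 and 1.93 in siNF45, and Gabre 1.78 and 1.55 against 1.80 and 1.50, so that both overlapped fully. Both had mean levels under the background level in each group. The other 10 GABA-A genes were below the filter, with means of 1.20 to 1.57 and differences from -0.37 to 0.24. They included each beta and gamma subunit gene with a value, Gabrb1, Gabrb2, Gabrg1 and Gabrg3, and a typical GABA-A receptor needs a beta subunit.

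Within arrays, Gabra4 minus Gabra3 was 1.99 and 2.40 in siNTC and 1.84 and 1.38 in siNF45, a shift of -0.59. This pair separated the groups, with an exact permutation p of 0.333.

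Glycine receptor genes were represented by Glrb, Glra3 and Glra1 among the tested genes. Glrb encodes the beta subunit, which anchors the receptor to the scaffold gephyrin. It read 5.10 and 4.98 in siNTC and 4.80 and 4.85 in siNF45. Both siNF45 arrays were lower, but the difference of -0.22 had an interval from -0.52 to 0.09. Glra3, an alpha subunit, read 2.28 and 1.69 in siNTC and 2.47 and 2.00 in siNF45. Its groups overlapped, with a wide interval around 0.25 (-0.37 to 0.87). Glra1, the alpha subunit of adult motor circuits, read 1.99 and 1.94 in siNTC and 1.74 and 1.58 in siNF45. The siNF45 arrays were lower and under the background level, with a fitted difference of -0.31 (SE 0.13, limma adjusted p = 0.297). Its 95% interval, -0.62 to 0.006, included 0. The siNTC mean was 1.11-fold above the background level, a ratio that carries no sampling error. Glra2 and Glra4 were below the filter, at 1.06 and 1.37.

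Of the nicotinic genes, 4 of 13 were tested, and Chrna3 was the one that stood higher in siNF45. Chrna3 encodes the alpha subunit that pairs with the product of Chrnb4 in the receptors of autonomic ganglia. It read 4.50 on both siNTC arrays and 4.94 and 5.08 in siNF45. Both siNF45 arrays were higher, with means of 4.50 and 5.01 ± 0.10 (SD, n = 2 each), which is 1.42-fold higher, by 0.51 (SE 0.12), at a limma adjusted p of 0.146. Chrnb4 read 3.34 and 3.40 in siNTC and 3.27 and 3.26 in siNF45. It lay slightly lower in siNF45, with a difference of -0.11 (95% interval -0.39 to 0.18). Chrna7, which forms receptors on its own, read 3.15 and 3.40 in siNTC and 3.07 and 3.11 in siNF45, a difference of -0.19 (95% interval -0.53 to 0.16). Chrnb2, the usual partner of alpha subunits in the brain, read 3.32 and 2.72 in siNTC and 3.21 and 2.56 in siNF45. Its replicates lay farther apart than its groups, and the interval around -0.14 ran from -0.85 to 0.58. The other 9 genes, among them Chrna5, were below the filter, with means of 1.07 to 1.55 and differences from -0.11 to 0.33.

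Receptor genes that lie next to each other in RefSeq's gene order were set side by side. Chrna5, Chrna3 and Chrnb4 are consecutive on chromosome 9, where Chrna3 was higher in siNF45, Chrnb4 was not, and Chrna5 was at background. Chrna3 minus Chrnb4 was 1.16 and 1.10 in siNTC and 1.67 and 1.82 in siNF45, a shift of 0.62. Chrna3 minus Chrna7, a relative elsewhere in the genome, was 1.35 and 1.10 in siNTC and 1.87 and 1.97 in siNF45, a shift of 0.70. Gria2 and Glrb are consecutive on chromosome 3. Gria2 minus Glrb was -0.10 and -0.37 in siNTC and -0.90 and -1.07 in siNF45, a shift of -0.75. These 3 pairs separated the groups, each with an exact permutation p of 0.333, while Grik2 minus Grik5, at -2.86 and -2.31 in siNTC and -2.84 and -3.10 in siNF45, overlapped (exact permutation p = 0.667), with Grik2 under the background level in siNF45. Gabra4 and Gabrb1 are neighbours on chromosome 5, where Gabrb1 was at background.

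**Figure D2:**
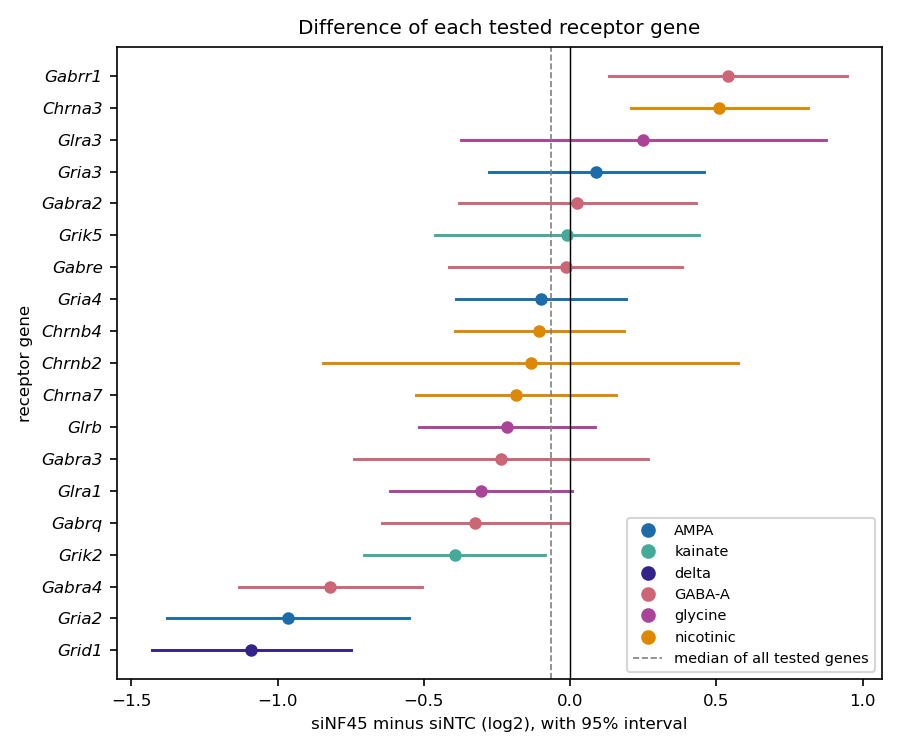
Difference siNF45 minus siNTC (log2) of each tested receptor gene with its 95% interval from limma, coloured by family; the dashed line is the median of all tested genes (-0.07). Intervals of Grid1, Gria2, Gabra4, Grik2 and Gabrq lie below 0 and those of Chrna3 and Gabrr1 above it, and no family has all its genes on 1 side except delta, with 1 gene, and kainate, with Grik5 at -0.01.

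Counted by separation, 10 of the 19 tested receptor genes had both siNF45 arrays below both siNTC arrays and 2 had both above. Among all tested genes the shares were 32.6% and 15.2%. Those above were Chrna3 and Gabrr1, and Gabrr1 reached the filter only through its siNF45 arrays, so its separation was built in. Below 0 lay 14 of the 19, beside 61.3% of all tested genes. The count below 0 moved with the scaling. After quantile normalization 13 of 19 and 53% of all tested genes lay below 0, and after centring each array on its median over the tested genes 10 of 19 and 39.5% did. Centring added 0.13 to each difference. It left Grid1 at -0.96, Gria2 at -0.84, Gabra4 at -0.69 and Chrna3 at 0.64, so that these 4 kept their direction. The limma adjusted p was then 0.021 for Grid1 and 0.043 for Gria2. Only Grid1, Gria2 and Gabra4 passed in any alternative, and none of the receptor genes passed where 1 array was left out, where the adjusted p of these 3 and of Chrna3 ranged from 0.307 to 0.471. The fits that left out an array kept Grid1 between -1.22 and -0.97, Gria2 between -1.16 and -0.77, Gabra4 between -0.91 and -0.74 and Chrna3 between 0.44 and 0.58.

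**Figure D3:**
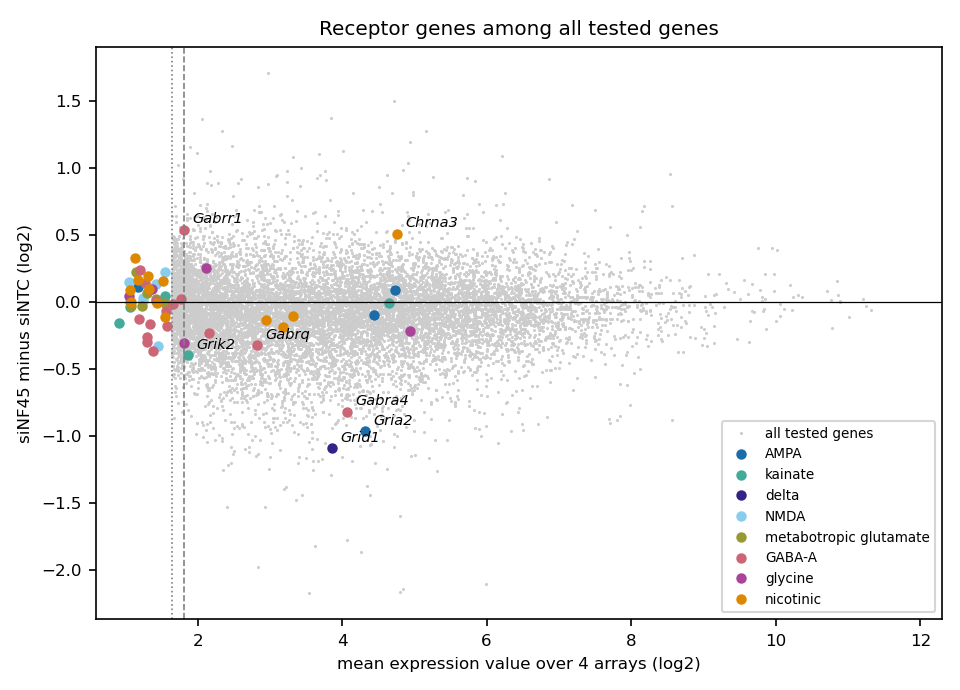
Mean value over the 4 arrays (log2, x axis) against the difference siNF45 minus siNTC (log2, y axis) for all tested genes in grey and the 57 receptor genes in colour; the dotted line is the filter and the dashed line the background level. Most receptor genes sit left of the filter, while Grid1, Gria2 and Gabra4 lie at middle levels toward the lower edge of the grey cloud and Chrna3 toward its upper edge.

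**Figure D4:**
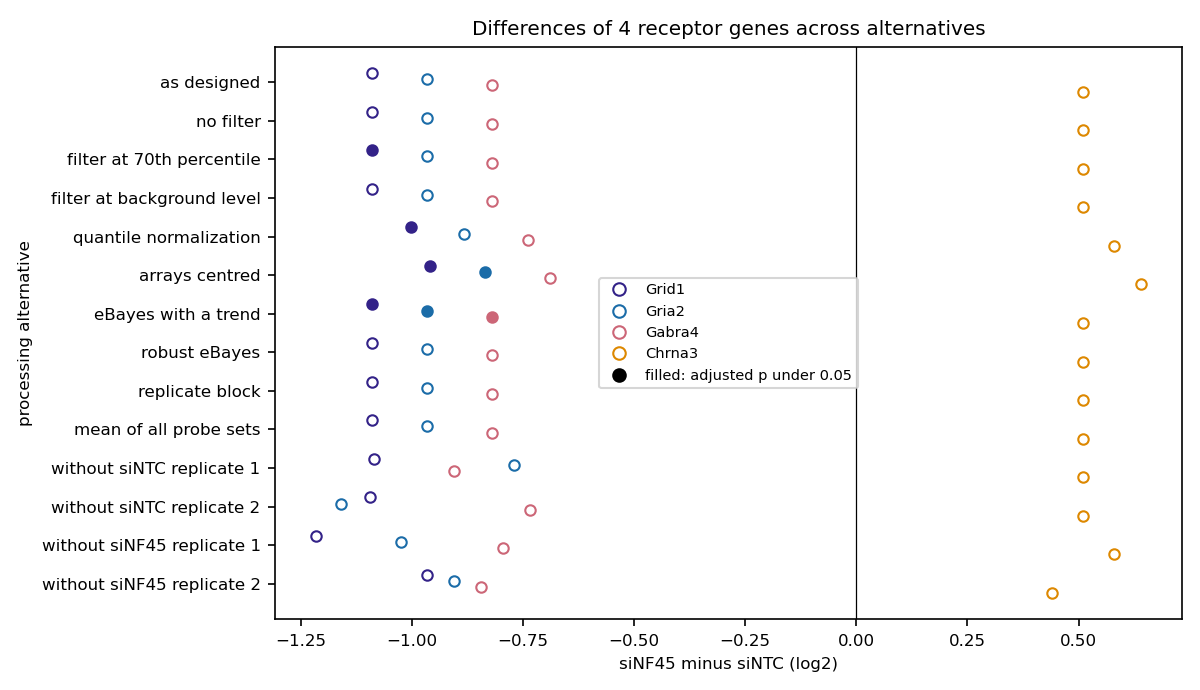
Differences (log2, x axis) of Grid1, Gria2, Gabra4 and Chrna3 in the fit as designed and in 13 processing alternatives (y axis); filled circles mark a limma adjusted p under 0.05. All 4 genes keep their side of 0 in each row, and filled circles appear for Grid1 in 4 alternatives, for Gria2 in 2 and for Gabra4 in 1.

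The proteins that work with these receptors were taken from 4 lists chosen by known function. Of 93 genes 56 were tested, none passed over all genes. At an unadjusted p under 0.05, 12 were lower and 1 was higher, beside 13.2% and 4.02% of all tested genes. The median of the 56 was -0.13. Among auxiliary subunits and other partners of AMPA, kainate and NMDA receptors, 6 of 22 were lower and 1 higher at that level, with a median of -0.19. Cacng3, a transmembrane regulator of AMPA receptors, read 2.76 and 2.68 in siNTC and 2.04 and 1.85 in siNF45, a difference of -0.78 (SE 0.13, limma adjusted p = 0.093). Cnih2, a cornichon that slows AMPA receptor closing, read 6.07 and 6.19 in siNTC and 5.46 and 5.32 in siNF45, a difference of -0.74 (SE 0.13, limma adjusted p = 0.096). In both genes the siNF45 arrays were clearly apart from siNTC. Olfm1, a secreted olfactomedin found with AMPA receptors, differed by -0.85 (SE 0.17, limma adjusted p = 0.126). The lipase Abhd12 differed by -0.56 (SE 0.12, limma adjusted p = 0.130). Lrrtm2, a synaptic adhesion protein, was the higher gene, named after its value was seen, at 0.41.

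GABA-B receptors are G protein-coupled and outside the symbol rule, and 2 of 7 genes of that list were tested. Gabbr1, which binds GABA, read 3.02 and 3.40 in siNTC and 2.66 and 2.42 in siNF45, a difference of -0.67 (SE 0.18, limma adjusted p = 0.164). Gabbr2, which couples to G proteins, read 6.61 and 6.58 in siNTC and 6.38 and 6.47 in siNF45, a difference of -0.17 (SE 0.12, limma adjusted p = 0.516). Both genes had lower siNF45 arrays, and only Gabbr1 was under an unadjusted p of 0.05, which does not show that the subunits differ from each other.

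Of 17 tested genes for assembly and trafficking of the pentameric receptors, 2 lay lower at that unadjusted level, near the 13.2% of all tested genes, and the median was -0.02. Gabarapl1, a relative of the GABA-A receptor-associated protein that also serves autophagy, differed by -0.70 (SE 0.17, limma adjusted p = 0.150). The nicotinic receptor chaperone Ric3 differed by -0.30 (SE 0.12, limma adjusted p = 0.281). Hap1, a trafficking protein bound by huntingtin, at -0.41, and the kinesin Kif5a, at -0.54 with overlapping groups, did not reach that level. Of 15 tested scaffolds and adhesion partners, 3 were lower at that level, beside the same 13.2%, and the median was -0.13. Grip1, a scaffold that binds the tails of GluA2 and GluA3, differed by -0.54 (SE 0.13, limma adjusted p = 0.149). Pick1, which binds the same tails, differed by -0.79 (SE 0.25, limma adjusted p = 0.218). Nlgn2, an adhesion protein of inhibitory synapses, differed by -0.36 (SE 0.13). Dlg2, a relative of the scaffold PSD-95, was at -0.27 (SE 0.14) and did not reach it.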

How the data were processed

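Expression was measured in 4 samples, 2 siNTC and 2 siNF45, on 1 array each. The authors deposited 1 value per probe set and array, taken here as log2 because values run from 0.12 to 12.21. Transcriptome Analysis Console is named in the submitters' processing notes with no version given, and neither the summarisation, any background correction nor the log base is stated in the sources used here. Array medians over all probe sets were 1.64 to 1.66, with genes uncentred. Direction was taken from the sample labels, for which Ilf2 was the check. No detection call was used, and the number of arrays limits the precision. The platform annotation gave 1 symbol to 23521 of 41345 probe sets, several to 1814 and none here to 16010. All 57 receptor symbols matched RefSeq (GRCm38.p6).

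The comparison used limma 3.58.1 under R 4.3.3, with lmFit and then eBayes and group as the single term, fitted to the deposited log2 values of all 11742 genes that reached the filter. It had 2 residual and 3.69 prior degrees of freedom. Pairs were compared with scipy 1.17.1 and sequences searched in Python 3.11.15. The script was tested on simulated data. Named in full were receptor genes with an unadjusted p under 0.05 or clearly above background, and the 4 genes of each partner list with the smallest p. The members and lists were chosen with earlier results of these data known. Alternatives were other filters, scalings, variance priors, probe set averaging, a replicate block and leaving out each array. The labels number the replicates 1 and 2 in each group, which was not read as pairing. No batch was used here.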

Additional observations from a re-analysis of the deposited data

How the results depend on the processing

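The number of calls moved with the filter, the scaling and the variance prior. Of 236 alternative values of the 19 tested receptor genes, 220 kept their direction and 16 turned, none of them among the 7 genes with an unadjusted p under 0.05. As deposited 0 receptor genes were called (7 at an unadjusted p under 0.05) among 10 of all genes, 9 lower and 1 higher. The calls were 1 of 12 receptor genes and 87 of all genes (70 lower, 17 higher) at the 70th percentile filter, 1 and 62 (44 lower, 18 higher) after quantile normalization, 2 and 172 (101 lower, 71 higher) after centring, and 3 and 174 (134 lower, 40 higher) with a trend in eBayes, where 1 partner gene, Cnih2, also passed. Grid1 was called in all 4 (limma adjusted p of 0.041, 0.040, 0.021 and 0.029), Gria2 after centring and with the trend, and Gabra4 with the trend (0.047). The cause was not tested. The fit with the replicate block called 0 of all genes and 0 receptor genes, with 6 receptor genes at an unadjusted p under 0.05 and Ilf2 at -2.17 (limma adjusted p = 0.258). Gaps between replicates correlated at 0.00615 between the groups over the tested genes, which share their arrays, so the numbers are not shown to pair the samples. Leaving out each array, which takes the remaining array of its group to vary as much as the other group's arrays, gave 0 called genes of all in each of the 4 fits, 4 to 6 receptor genes at an unadjusted p under 0.05, and Ilf2 from -2.26 to -2.07. That count was 4 without siNTC replicate 1 and 4 without siNTC replicate 2, where Gabrq, Gabrr1 and Grik2 were no longer included.

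The 16 values that turned came from 9 genes, none of which had an interval that excluded 0. Grik5 became 0.0675 after quantile normalization, and centring gave Grik5 0.12, Gabre 0.12, Gria4 0.03 and Chrnb4 0.025. Leaving out each array ranged Grik5 from -0.24 to 0.22, Gabre from -0.17 to 0.14, Chrnb2 from -0.46 to 0.19, Gabra2 from -0.13 to 0.18, Glra3 from -0.045 to 0.55, Gria3 from -0.065 to 0.25 and Gabra3 from -0.49 to 0.02. Signal over background limits the 38 receptor genes below the filter: without a filter 1 more of them was lower (Gabra5) and 1 higher (Chrna9) at an unadjusted p under 0.05, beside 8.27% lower and 4.22% higher of all 22180 genes, and 0 of the 57 were called.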

Other observations

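In some receptor genes replicates 1 and 2 of a group differed more than the group means did. Chrnb2 was higher on replicate 1 than on replicate 2 by 0.60 in siNTC and by 0.65 in siNF45, and Glra3 by 0.59 and 0.47. Gabre showed the same order at background levels, by 0.23 and 0.30. Over the 19 tested receptor genes the gaps had the same sign in both groups for 8, so this was not general, and these examples were picked with the values in view.

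Grina, whose product is named for an NMDA receptor complex but is no receptor subunit, was outside the symbol rule. It read 7.25 and 7.09 in siNTC and 6.58 and 6.56 in siNF45, a difference of -0.60 (SE 0.12, limma adjusted p = 0.129). The NMDA receptor genes with values were at background on the same arrays.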
